A study of Mus musculus with 4 samples.

Results

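Many genes carry more than 1 transcription start site (TSS), and the present account concerns the starts that lie inside protein-coding genes, well downstream of the first. In the GENCODE vM1 annotation of the mouse genome (assembly mm9), a TSS of a protein-coding transcript on chromosomes 1 to 19 was taken as an alternative internal promoter when it lay more than 3 kb downstream of the most upstream TSS of its gene and more than 3 kb from any TSS of another gene. TSSs of a gene within 500 bases of each other were merged to the most upstream. Of 21418 coding genes, 4097 held such a TSS, and the 6244 internal TSSs made up the members among 27662 TSS windows tested in all, the rest being the first TSSs of the coding genes. Each window spanned 1 kb on either side of a TSS. The windows of 819 of the 6244 internal TSSs overlapped that of another internal TSS, so some reads count for more than 1 member. The rule uses the annotation alone and no measured value, although this set of TSSs was taken up with earlier results of these data known.

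The libraries were chromatin immunoprecipitation sequencing (ChIP-seq) libraries from mouse embryonic stem (ES) cells of the E14 line, which the growth protocol gives as E14TG2a.4, grown without feeders in the presence of LIF. Jarid1b, a demethylase encoded by Kdm5b, was precipitated in 2 libraries. H3K4me3, the trimethylated form of lysine 4 on histone H3, was precipitated in 2 more. For the scramble library the cells had received a PLKO.1 lentivirus that expresses a short hairpin RNA (shRNA) of scrambled sequence, and for the knockdown library a hairpin against Jarid1b. Puromycin selected the transduced cells. Whether the cells of the Jarid1b libraries were transduced is not given separately in the labels, no mutant allele is named, and neither RNA nor protein of Kdm5b was measured in the files, so the depth of the knockdown was not checked here. Kdm5b itself held no internal TSS by the rule.

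H3K4me3 marks the nucleosomes that flank active or poised promoters, and it accumulates most strongly where the DNA is rich in unmethylated CpG dinucleotides. Enzymes of the Jarid1 family remove this mark. An alternative promoter gives a transcript with another first exon, and so can change the untranslated leader, the N terminus of the protein or the tissue in which a gene is used. Dnmt3a, the de novo DNA methyltransferase, and Kdm2b, a CpG-island-binding demethylase, are textbook cases in which an internal promoter gives a shorter protein.

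Sequences of the 200 bases just upstream of 9 TSSs are printed to show the range of DNA in question, with every CpG in capitals and each written 5′ to 3′ on the strand of its gene. All were read from the NCBIM37 assembly that underlies mm9, and none overlaps an annotated exon. Dnmt3a is shown because its first and internal TSS differed most in their H3K4me3 ratio between the libraries. The first lies upstream of its TSS at chr12:3805807-3806006 (+) and the internal at chr12:3885249-3885448 (+), and each holds 2 CpGs.

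Dnmt3a first: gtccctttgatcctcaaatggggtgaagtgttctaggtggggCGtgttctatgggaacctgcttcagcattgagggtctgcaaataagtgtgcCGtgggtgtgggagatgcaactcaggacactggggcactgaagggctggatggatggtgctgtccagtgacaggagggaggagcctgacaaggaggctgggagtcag
Dnmt3a internal: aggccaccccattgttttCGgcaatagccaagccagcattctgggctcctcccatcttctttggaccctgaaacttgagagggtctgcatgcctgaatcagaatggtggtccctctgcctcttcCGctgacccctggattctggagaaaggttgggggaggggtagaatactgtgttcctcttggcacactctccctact

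Rbpj, the DNA-binding effector of Notch signalling, is shown as a pair whose internal promoter is the CpG-rich member. Its first promoter at chr5:53946818-53947017 (+) holds 5 CpGs, and the internal at chr5:53981254-53981453 (+) holds 22.

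Rbpj first: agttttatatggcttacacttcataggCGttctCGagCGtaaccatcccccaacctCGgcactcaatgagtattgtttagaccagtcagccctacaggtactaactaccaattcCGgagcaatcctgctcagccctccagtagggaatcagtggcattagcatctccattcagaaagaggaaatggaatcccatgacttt
Rbpj internal: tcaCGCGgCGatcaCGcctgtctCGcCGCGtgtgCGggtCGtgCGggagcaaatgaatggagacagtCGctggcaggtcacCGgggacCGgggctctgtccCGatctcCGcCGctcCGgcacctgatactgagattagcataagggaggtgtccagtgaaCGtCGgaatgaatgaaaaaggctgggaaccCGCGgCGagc

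Rarg, which encodes the retinoic acid receptor gamma, is shown as a pair of similar GC content over the full window. Its first promoter lies at chr15:102087949-102088148 (-) and holds 9 CpGs, and the internal lies at chr15:102076932-102077131 (-) and holds 10.

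Rarg first: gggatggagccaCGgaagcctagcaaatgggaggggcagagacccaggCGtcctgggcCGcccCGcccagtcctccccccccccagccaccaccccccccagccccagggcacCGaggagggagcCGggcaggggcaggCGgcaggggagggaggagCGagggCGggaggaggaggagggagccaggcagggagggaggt
Rarg internal: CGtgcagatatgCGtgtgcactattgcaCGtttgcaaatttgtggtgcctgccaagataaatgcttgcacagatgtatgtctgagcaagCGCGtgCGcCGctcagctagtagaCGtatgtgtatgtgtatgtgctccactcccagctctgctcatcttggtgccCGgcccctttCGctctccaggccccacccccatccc

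The last 3 are internal promoters that lead other comparisons. Esrrb at chr12:87810867-87811066 (+) was the member of the pluripotency list with the most H3K4me3, Litaf at chr16:10975673-10975872 (-) had the lowest ratio among named members, and Runx3 at chr4:134708211-134708410 (+) was among the members with the most Jarid1b. They hold 8, 3 and 28 CpGs.

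Esrrb internal: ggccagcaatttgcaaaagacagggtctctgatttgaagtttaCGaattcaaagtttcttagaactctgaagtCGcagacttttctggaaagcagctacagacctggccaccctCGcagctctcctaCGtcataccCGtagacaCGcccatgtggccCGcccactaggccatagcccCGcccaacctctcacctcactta
Litaf internal: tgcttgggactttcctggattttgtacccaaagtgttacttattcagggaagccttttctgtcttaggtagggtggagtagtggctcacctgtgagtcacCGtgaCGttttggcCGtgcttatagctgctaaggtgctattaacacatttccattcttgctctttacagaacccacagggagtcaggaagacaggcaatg
Runx3 internal: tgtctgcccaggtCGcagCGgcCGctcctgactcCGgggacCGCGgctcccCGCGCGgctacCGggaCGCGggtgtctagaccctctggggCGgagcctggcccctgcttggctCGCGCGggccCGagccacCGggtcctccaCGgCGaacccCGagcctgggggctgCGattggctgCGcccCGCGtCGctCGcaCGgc

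The 4 libraries kept between 1602370 and 5158330 reads after repeats at 1 position and strand were removed (4336767 and 1602370 for Jarid1b, 5158330 for scramble, 2635705 for knockdown). Read counts printed below are not scaled to these totals, so a lower count in the knockdown library can be a higher level. The 2 Jarid1b libraries shared 16.8% of plus-strand positions in register, against a median of 1.76% at other offsets, and were therefore counted as 1 sample. With 1 library for each H3K4me3 condition no difference between conditions has a replicate check, and every interval covers counting error only. The reads carry no molecular identifiers and so need not be independent molecules. Promoters are not replicates of a condition. Of 8 ES cell marker genes, 7 had H3K4me3 at their first TSS in the scramble library and 6 in the knockdown library, and their summed level was 304 and 215 RPM, which is reads per 1000000 reads kept. Of 8 fibroblast marker genes, 3 and 4 had the mark, with 25 and 69.8 RPM summed, most of it at Twist1, Twist2 and Thy1. Col1a2 had 7 reads in the scramble library and 10 in the knockdown library, where it was called. Prrx1 had 3 and 8 reads and was called in neither library. Col1a1, Col3a1 and Fap had between 0 and 7 reads in either library. The part of other cells in the values that follow was not tested.

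Internal promoters carried H3K4me3 less often than first promoters. Where both TSSs of a pair were called, the average profile peaked just downstream of the start at each. In the scramble library 1212 of 6244 internal TSSs (19.4%), in 988 genes, held more reads than predicted from the genome-wide rate or from the 10 kb on each side, whichever was higher, by a one-sided Poisson test with Benjamini-Hochberg adjustment and a threshold of 0.05. Among all windows tested the share was 51.3%, among the first TSSs of all coding genes 60.6%, and among the first TSSs of the same 4097 genes 70.5%. In the knockdown library 1228 internal TSSs passed (19.7%), where the shares were 51.4% of all windows, 60.7% of all first TSSs and 71% of the first TSSs of the same genes. The mark was called at 1064 internal TSSs in both libraries, at 148 in the scramble library alone and at 164 in the knockdown library alone. A window placed midway between the first and the internal TSS, away from any TSS, could be drawn for 4238 members. It passed for 49 of them in the scramble library (1.16%), against 859 of the internal TSSs of the same pairs (20.3%). The midpoints were adjusted among themselves and the internal TSSs among all windows tested. The 2 shares therefore rest on unlike cutoffs, stricter at the midpoints, and are only a rough comparison.

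Each member forms a pair with the first TSS of its gene, and the pairs were sorted by which of their TSSs was called in the scramble library. In 709 pairs of 582 genes both were called, in 503 pairs of 406 genes the internal TSS alone, in 3718 the first alone and in 1314 neither. The internal-alone pairs largely stayed so in the knockdown library, where 436 of the 503 were again internal alone. Of the first-alone pairs 112 gained an internal call there, and of the pairs with both called 107 lost the internal call. In the pairs with both called, the internal level was a median of 0.67 lower on the log2 scale. It was at least 2-fold above the first in 107 and at least 2-fold below it in 298 of them. An internal TSS called in the scramble library held a median of 45 reads there and 35 in the knockdown library. A first TSS of the same genes, called likewise, held 87 and 69. These counts are unscaled, and the knockdown library kept fewer reads, so they do not show a lower level there. In the pairs with both called, the median internal level was 8.14 RPM in the scramble library and 11 RPM in the knockdown library. The median first level of those pairs was 14.5 and 24.7 RPM.

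The average profile of H3K4me3 around called internal TSSs rose just downstream of the start, dipped at the start itself and had a lower shoulder upstream. In internal-alone pairs its highest bin, 175 bases downstream, held 14.5 RPM per kb per TSS in the scramble library, 19 times the level of the flanks, and 25.1 in the knockdown library. In pairs with both called the internal peak reached 13 and 20.6 RPM per kb, and the first peak of those genes 18.9 and 33.6. Around internal TSSs of first-alone pairs there was no peak at the start, and the highest bin was the most upstream one drawn. The first TSSs of internal-alone genes reached at most 1.07 RPM per kb in the scramble library. The classes were sorted by calls on these same scramble reads, so the presence or absence of a scramble peak follows from the sorting.

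**Figure D1:**
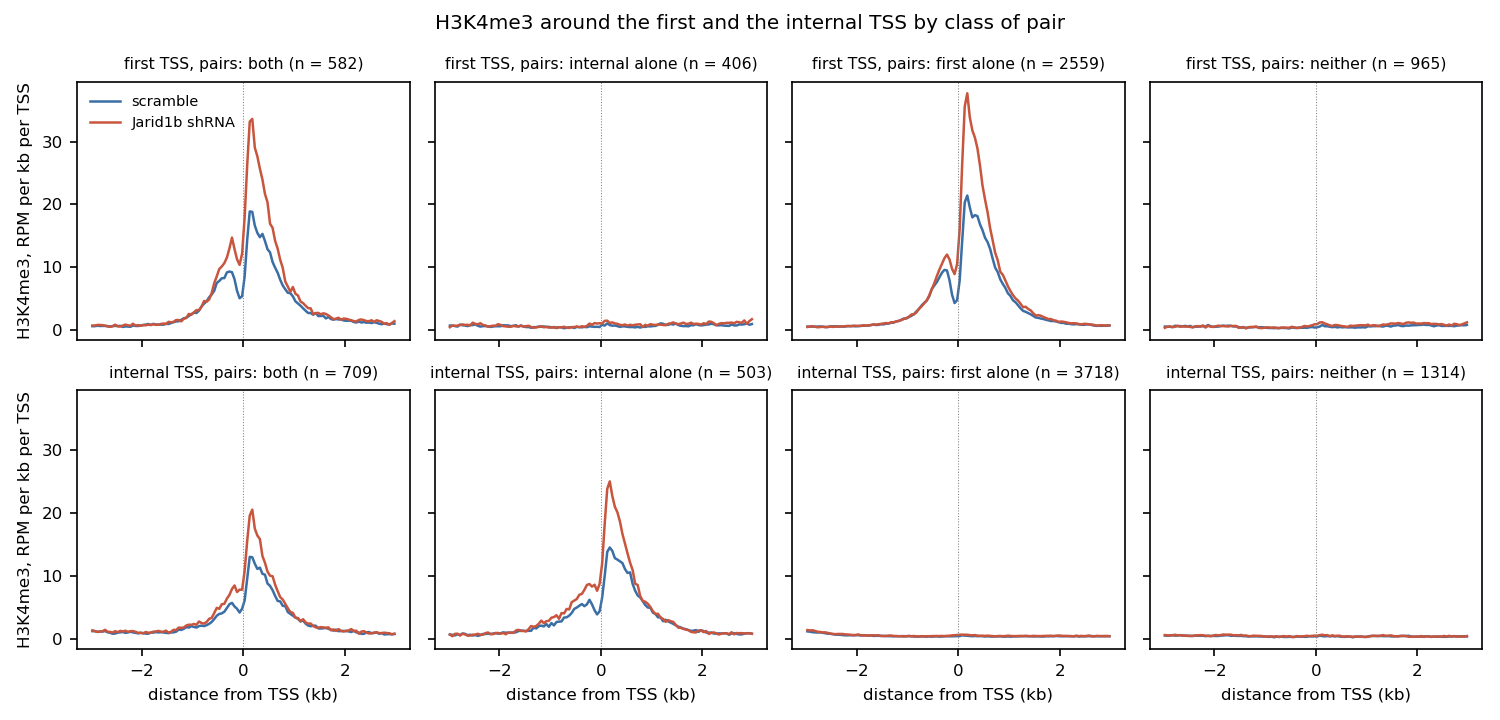
H3K4me3 in RPM per kb per TSS (vertical axis) against distance from the TSS in kb (horizontal axis), in bins of 50 bases, for the scramble library (blue) and the Jarid1b shRNA library (red). The upper row shows first TSSs and the lower row internal TSSs, by class of pair. The internal-alone pairs peak at the internal TSS, at 14.5 RPM per kb in the scramble library, and are flat at the first, as their sorting by scramble calls requires.

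Called and uncalled internal TSSs differed in their DNA. CpG-rich promoters were defined by an observed-to-expected CpG ratio of at least 0.6 and a GC content of at least 50% in the 1 kb around the TSS. Only 544 internal TSSs were CpG-rich (8.71%), against 2212 of the 4097 first TSSs of the same genes (54%). Of those 544, 525 had H3K4me3 in the scramble library (96.5%, 95% Wilson interval 94.6 to 97.8%). Of the 5700 other internal TSSs 687 had it (12.1%, 11.2 to 12.9%). Wilson intervals, here and below, treat members as independent, although the windows of 139 of the 544 overlap that of another member. Among the 348 pairs with a CpG-rich internal and a CpG-poor first TSS, 250 were internal alone. Among the 3227 pairs with the reverse arrangement 5 were.

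Within the same GC class internal TSSs were called less often than first TSSs up to 60 to 65% GC. Below 45% GC, 3.67% of internal and 12.4% of first windows had the mark, at 45 to 50% GC 15.2% and 53.9%, and at 50 to 55% GC 28.0% and 77.8%. At 55 to 60% the shares were 52.8% and 93.8%, and at 65% and above 95.5% and 97.2%. The gap was thus widest in the middle classes and narrowest in the highest. The annotation differed too. Members whose transcripts were all tagged as incomplete at the 5′ end had the mark in 88 of 1639 cases (5.37%), and the other members in 1124 of 4605 (24.4%). Members within a coding exon of another transcript had it in 124 of 2205 cases (5.62%), and 68.0% of these carried the incomplete tag. In introns the share was 27.0% (901 of 3334), and in untranslated exons 26.8% (186 of 694). Distance from the first TSS went with little change, from 21.4% at 3 to 5 kb to 17.9% beyond 100 kb, with Wilson intervals of 18.5 to 24.7% and 15.8 to 20.3% that overlap.

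**Figure D2:**
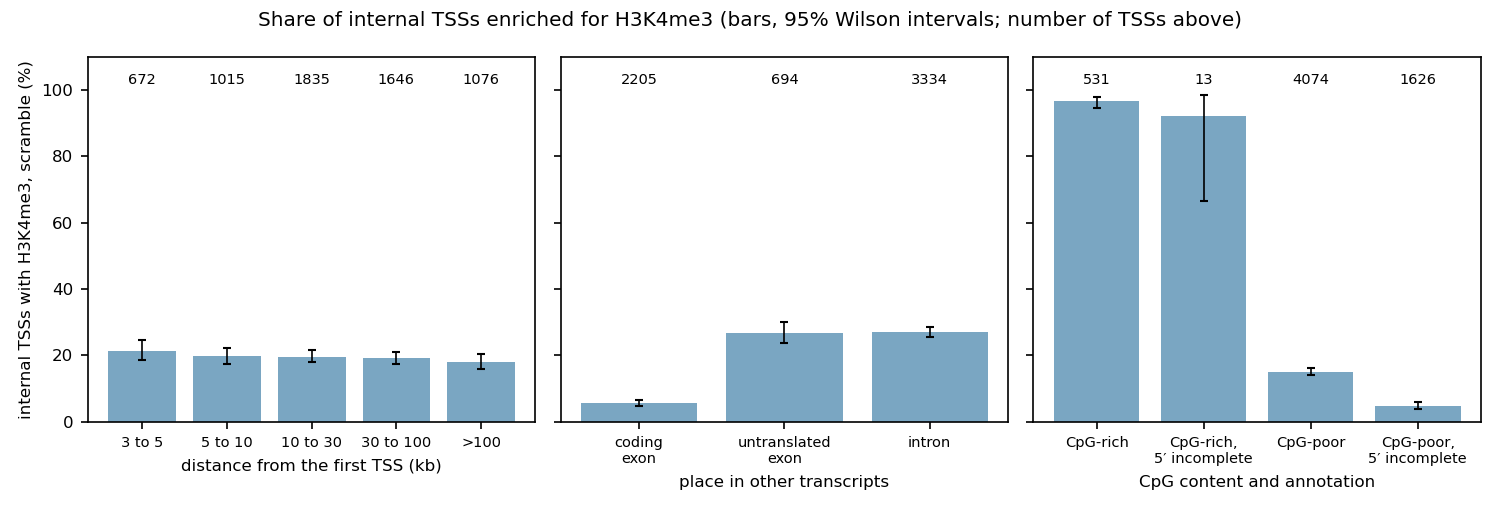
Share of internal TSSs with H3K4me3 in the scramble library, in percent (vertical axis), by distance from the first TSS, by place in other transcripts of the annotation, and by CpG content and 5′ tag (horizontal axes). Bars are shares, error bars 95% Wilson intervals, and the number of TSSs stands above each. CpG-rich members without the tag reach 96.6% and CpG-poor ones with it 4.67%.

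Short motifs in the 200 bases upstream of the TSS, read on both strands from the same assembly, were counted by the H3K4me3 call. The letters GGGCGG, the core of the GC box bound by Sp1, were present at 44.8% of internal TSSs with H3K4me3, at 5.88% of internal TSSs without it, and at 60.5% of first TSSs of the same genes with the mark. All first TSSs of coding genes held them in 38.2% of cases. At internal TSSs that had the mark and were not CpG-rich they were present in 206 of 687 cases. The letters TATAAA of the TATA box were present at 4.46% of internal TSSs with the mark, 12.2% of those without, 3.60% of first TSSs with it and 10.1% of all first TSSs. CCAAT differed less, in the same order at 27.5%, 23.8%, 31.2% and 30.3%. These are matches of letters and not sites of binding, and whether matches of different motifs share bases was not checked.

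The 8 internal-alone members with the highest levels lie in 7 genes, of which Esrrb is described with the pluripotency regulators. 2610305D13Rik, with 286 and 58 reads, lies among near-identical genes on chromosome 4 where the assignment of reads is uncertain. Eef1a1, which encodes the elongation factor that delivers aminoacyl-tRNA to the ribosome, had 323 reads in the scramble library and 152 in the knockdown library at its internal TSS. Urm1, a ubiquitin-like protein used in tRNA thiolation, had 321 and 108. Ldha, lactate dehydrogenase A, had 315 and 113 at an internal TSS and 297 and 81 at another just downstream, in an overlapping window, while its first TSS had 2 and 1. Gpx4, the enzyme that reduces lipid hydroperoxides, had 283 and 144, and Dgke, a diacylglycerol kinase, 278 and 144. In Eef1a1, Urm1, Ldha, Gpx4 and Dgke the annotated most upstream TSS held less of the mark, which sat 4.36 to 7.43 kb inside the gene. An uncalled first TSS was not always empty: those of Eef1a1 and Gpx4 held 39 and 62 reads in the scramble library, and where the TSSs lie within 10 kb the stronger one raises the local rate of the weaker.

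Regulators of pluripotency, the network that keeps ES cells undifferentiated, had 7 internal TSSs in 6 genes, and 5 of these had H3K4me3 in the scramble library, 3 of them alone. Esrrb, an orphan nuclear receptor of that network, had 291 reads in the scramble library and 103 in the knockdown library at an internal TSS 109 kb into the gene, where its first TSS had 3 and 0. Nr5a2, a nuclear receptor that acts on the Pou5f1 gene, had 120 and 40 at its internal and 1 and 2 at its first TSS. Both genes were thus marked at the internal start in either library. Pou5f1, which encodes the transcription factor Oct4, had 149 and 55 reads at an internal TSS 3.35 kb from the first, which had 401 and 126. Lin28b, an inhibitor of let-7 maturation, had 31 and 12 at the internal and 91 and 96 at the first TSS.

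Nuclear receptors and their cofactors had the mark at 11 of 32 internal TSSs, 5 of them alone. Rara, the retinoic acid receptor alpha, had 191 and 153 reads at its upstream internal TSS and 127 and 30 at its downstream internal TSS, with 4 and 5 at the first. The downstream one was lower in the knockdown library by 1.11 on the log2 scale (interval -1.74 to -0.53), while the upstream one had a ratio of 0.65 (0.33 to 0.96). With the expected GC ratio removed both lay below 0, at -1.81 and -0.44. The lower call was lost with all deposited reads, at -0.91, and with scaling to background bins, at -0.86. Rarg had 269 and 102 reads at its internal TSS and 35 and 54 at its first. Its internal level exceeded the first in both libraries, and by less in the knockdown library.

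Genes of DNA methylation and chromatin had the mark at 12 of 37 internal TSSs in 16 genes. Dnmt3a had 5 internal TSSs, of which 1, at chr12:3884449-3886448, was called, with 28 reads in the scramble library and 5 in the knockdown library. The remaining 4 held 3 to 6 reads in the scramble library and 1 to 3 in the knockdown library. Which of them starts the short Dnmt3a protein was not determined. Kdm2b had 107 and 151 reads at its internal and 110 and 84 at its first TSS, close to equal in the scramble library and higher at the internal start in the knockdown library. The ratios of these 2 starts did not differ by 2-fold. With the expected GC ratio removed their log2 difference was 0.16, and the internal ratio was 0.04 and not called. Arid5b, an ARID-domain cofactor of a histone demethylase, had 208 and 42 at an internal TSS 142.1 kb into the gene and 18 and 11 at the first.

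Developmental transcription factors had the mark at 17 of 69 internal TSSs in the scramble library and at 23 in the knockdown library. Foxp1, a forkhead factor, had 134 and 69 reads at an internal TSS 238 kb into the gene and 5 and 2 at the first. Auts2, a gene of neuronal development, had 145 and 113 at an internal TSS 1005 kb from the first, which had 46 and 60. Tbx3, a T-box factor, had 112 and 129 at the internal and 47 and 65 at the first TSS. In each of these the internal start held more of the mark than the first in both libraries.

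Signalling genes had the mark at 25 of 84 internal TSSs, 12 of them alone. Ptch1, the Hedgehog receptor, had 171 and 117 reads at an internal TSS and 152 and 168 at another in an overlapping window, with 31 and 41 at the first. Synaptic and cell adhesion genes had it at 20 of 71. Ptprs, a receptor phosphatase, had 98 and 78 at the internal and 46 and 67 at the first TSS, Gabbr1, a GABA receptor subunit, 95 and 106 against 167 and 131, and Nrxn2, a neurexin, 90 and 119 against 39 and 54.

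Cytoskeletal linkers had the mark at 29 of 97 internal TSSs and RNA-binding proteins at 9 of 36. Eif4g1, the scaffold of translation initiation, had 3 internal TSSs in overlapping windows with 125 to 185 reads in the scramble library and 121 to 159 in the knockdown library, against 2 and 2 at the first. Myo10, an unconventional myosin of filopodia, had 147 and 36 at the internal and 143 and 114 at the first TSS, nearly equal in the scramble library and unequal in the knockdown library. Tpm1, tropomyosin, had 88 and 71 at the internal and 36 and 23 at the first. Imprinted genes had the mark at 5 of 18. Snrpn, expressed from the paternal copy, had 89 and 35 at an internal TSS 135 kb into the gene and 2 and 0 at the first. The lists were drawn up from genes known for alternative promoters, with earlier results of these data known, and their shares are a description. Their shares of called members ran from 24.6% to 71.4%, beside 19.4% over all members.

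**Figure D3:**
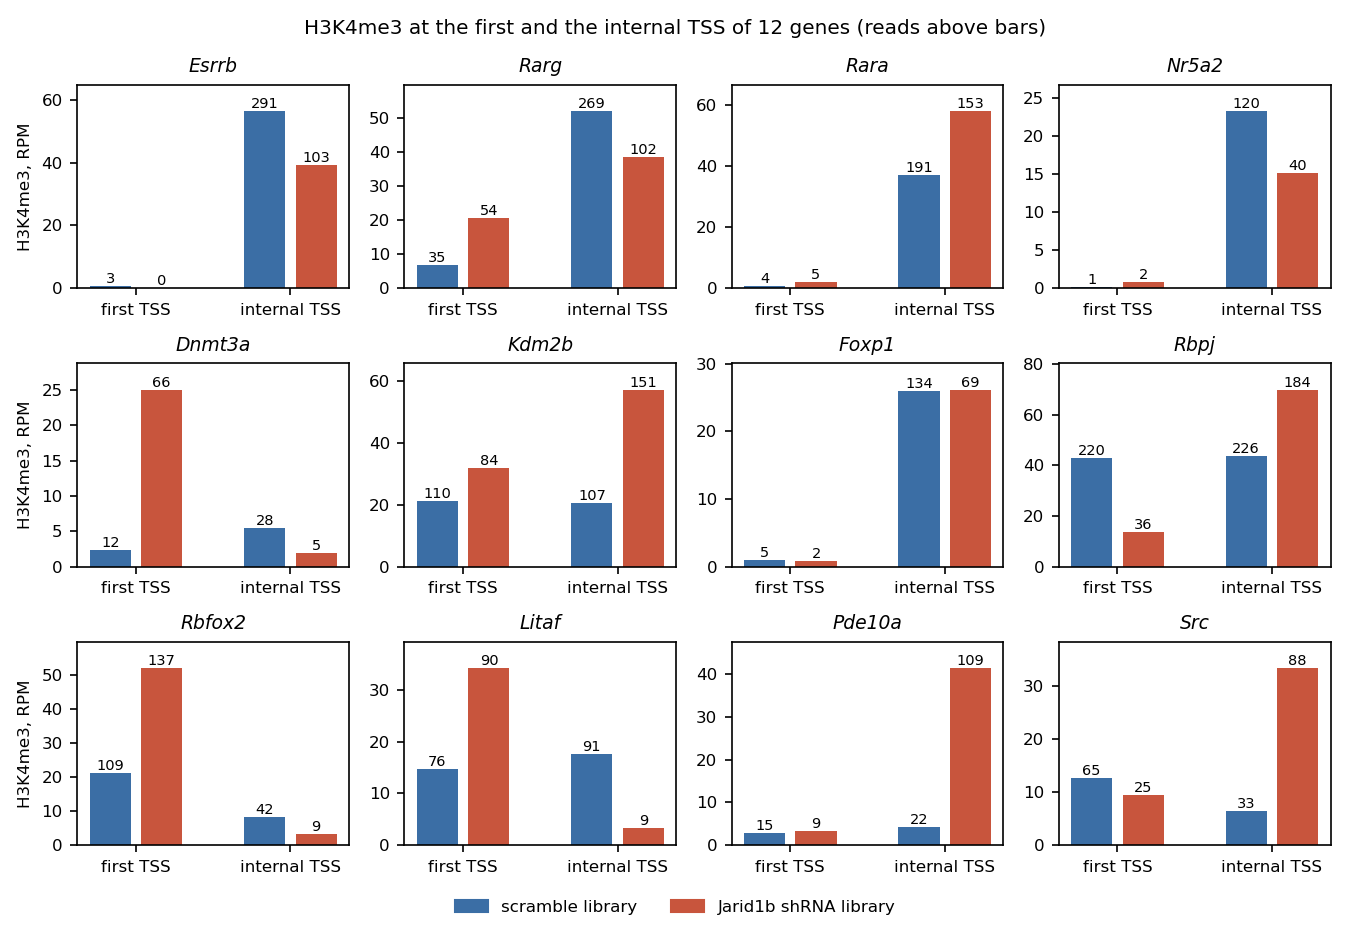
H3K4me3 in RPM (vertical axes, each from 0 with its own scale) at the first and the internal TSS of 12 genes, in the scramble library (blue) and the Jarid1b shRNA library (red), 1 library each, with the read counts above the bars. Esrrb, Rara, Nr5a2 and Foxp1 carry the mark at the internal TSS, and in Dnmt3a the first TSS goes from 12 to 66 reads while the internal goes from 28 to 5.

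The level of H3K4me3 in the knockdown library was set against the scramble library at members that were called in at least 1 of them and held at least 20 reads in all. At these 1147 internal TSSs the median log2 ratio of RPM was 0.53 (95% order-statistic interval 0.47 to 0.59), and at 2884 first TSSs of the same genes it was 0.61. The median over all 12875 first TSSs compared was 0.42, so most windows lay above 0 on this scale, and values are best read against that shift. By a ratio of at least 2-fold with an exact conditional interval excluding 0, 319 internal TSSs were higher (27.8%) and 43 lower (3.75%). Over all windows compared the shares were 24.6% and 2.25%, over all first TSSs 24.3% and 2.12%, and over first TSSs of the same genes 31.4% and 2.43%. The internal shares thus lay near the background. Scaled to the median ratio of all first TSSs, 170 of the 1147 internal TSSs were higher and 110 lower. On that scale 1512 of the 12875 first TSSs were higher and 1116 lower.

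The ratio rose with GC content at internal and first TSSs alike. Below 45% GC the median log2 ratio was -0.67 at internal and -0.71 at first TSSs, at 50 to 55% it was 0.33 and 0.29, and at 65% and above 1.5 and 1.62. The intervals of the internal and first medians overlapped in every GC class except 45 to 50%, where the medians were -0.10 and -0.24. Over the 1147 members the Spearman correlation of the ratio with GC content was 0.64, as a description of windows that share their libraries and base composition. CpG-rich members were higher in 226 and lower in 2 of 533 cases, the others higher in 93 and lower in 41 of 614. With the ratio expected from background bins of the same GC class removed, the median over the 1147 members was 0.11, with 106 higher and 54 lower. Treated likewise, all 12875 first TSSs compared had a median of -0.015, with 960 higher and 450 lower.

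**Figure D4:**
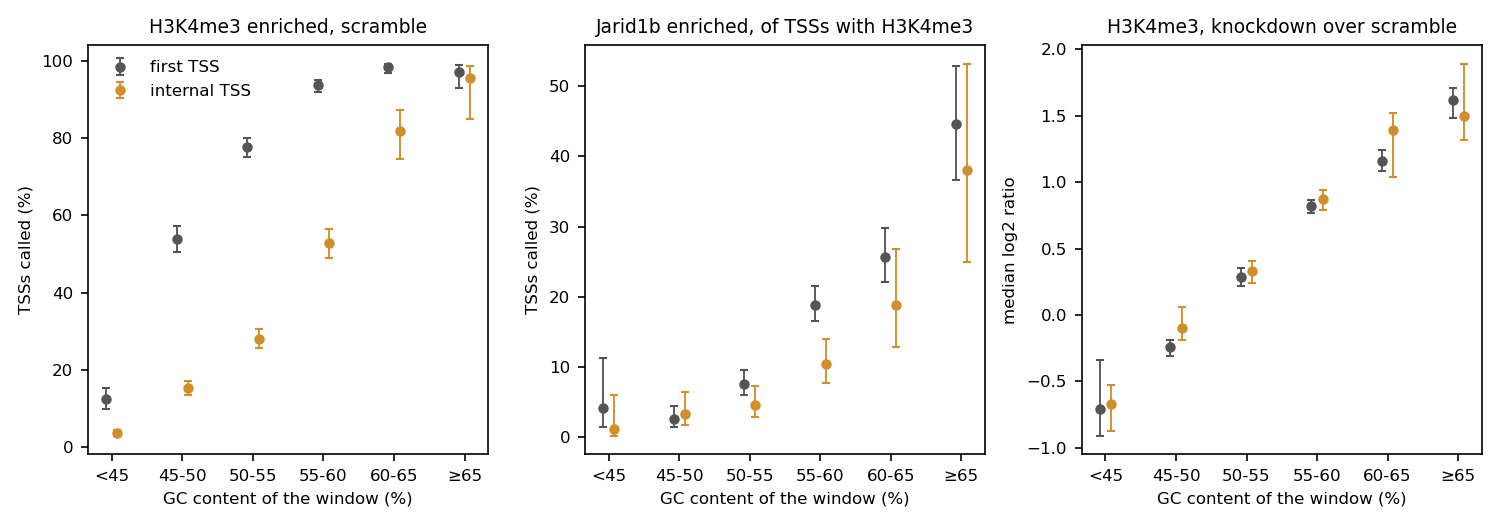
Values against the GC content of the window in percent (horizontal axes), for first TSSs of the same genes (grey) and internal TSSs (orange): the percentage with H3K4me3 in the scramble library, the percentage of those with Jarid1b in both Jarid1b libraries, and the median log2 ratio of H3K4me3 between the knockdown and scramble libraries. Points are shares or medians, and bars are 95% Wilson or order-statistic intervals. Internal TSSs lie below first TSSs in the left panel up to 60 to 65% GC, and the median ratios run together from -0.67 and -0.71 to 1.5 and 1.62.

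The highest ratios among members with at least 50 reads over both libraries lay at windows rich in GC. Pde10a, a cyclic nucleotide phosphodiesterase of the striatum, went from 22 reads in the scramble library to 109 in the knockdown library, a log2 ratio of 3.28 (interval 2.61 to 4.01). Fam19a5, a secreted protein of the brain, went from 33 to 132 (2.97), and Pitx1, a homeobox factor of the hindlimb, from 13 to 42 (2.66). Nfatc1, a calcium-regulated transcription factor, went from 13 to 66 (3.31). The windows of these 4 hold 62.1 to 72.3% GC. Kcnt1, a sodium-activated potassium channel, went from 14 to 42 (2.55), Furin, a proprotein convertase, from 32 to 93 (2.51), Cacna1d, an L-type calcium channel subunit, from 14 to 40 (2.48), and Pgbd5, a protein derived from a transposase, from 42 to 116 (2.43). Each of these 8 also passed with the expected GC ratio removed.

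The lowest ratios lay at windows of 40.2 to 52.2% GC. Litaf, an endosomal membrane protein, went from 91 reads to 9, a log2 ratio of -2.37 (interval -3.54 to -1.38). Hmgxb4, an HMG-box protein, went from 120 to 12 (-2.35), Gpr19, an orphan G-protein-coupled receptor, from 63 to 9 (-1.84), and Capn3, a calpain of muscle, from 49 to 7 (-1.84). Snx10, a sorting nexin, went from 43 to 7 (-1.65) and Fis1, a mitochondrial fission protein, from 110 to 18 (-1.64). Gm13051 went from 253 to 31 (-2.06) and Gm13157 from 176 to 26 (-1.79). The last pair belong to a cluster of near-identical zinc-finger genes on chromosome 4, where the assignment of reads is uncertain. All 8 passed also with the expected GC ratio removed.

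Inside a gene the scaling of the libraries cancels, so the log2 ratio of the internal TSS minus that of the first was taken in the 664 pairs, of 548 genes, where both could be compared. Its median was -0.14 (interval -0.26 to -0.05), and with at least 50 reads at each TSS it was -0.05 (-0.14 to 0.05). It was at least 2-fold higher at the internal TSS in 72 pairs (10.8%) and at least 2-fold lower in 120 (18.1%), with exact intervals excluding 0. In 75 pairs both TSSs were higher in the knockdown library, in 89 the internal alone, in 151 the first alone, and in 9 the internal was lower while the first was higher. Across pairs the internal and first ratios went together only weakly (Spearman 0.23), as a description of pairs from the same libraries.

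The direction of the difference went with the difference in GC content between the windows of a pair. Where the internal window was 10 or more points poorer in GC the median difference was -1.25, with 49 of 87 pairs called lower and 1 higher. Where it was 10 or more points richer the median was 1.14, with 17 of 30 pairs called higher and 0 lower. In the 373 pairs within 5 points the median was 0.00, with 37 higher and 38 lower. With the expected GC ratio removed the median over all pairs was -0.02. The Spearman correlation of the differences in ratio and in GC content was 0.55 over the 664 pairs.

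**Figure D5:**
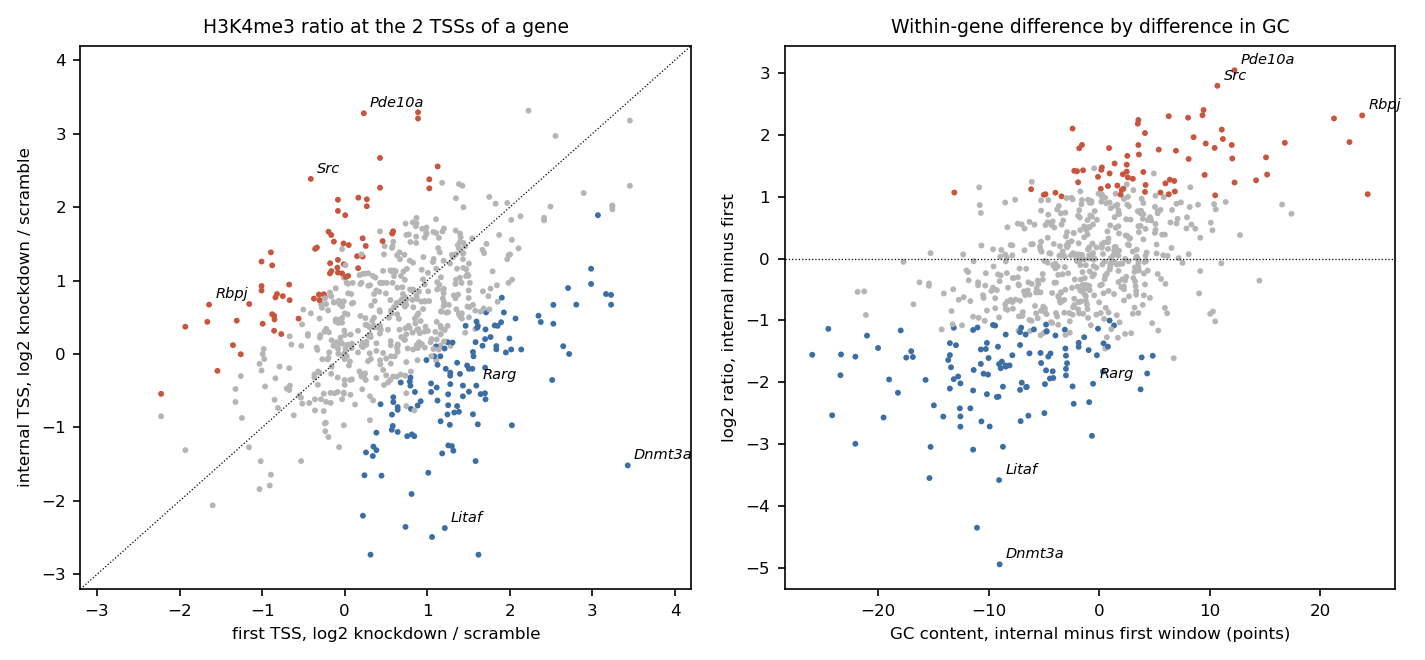
Left, log2 ratio of H3K4me3 between the knockdown and scramble libraries at the first TSS (horizontal axis) and the internal TSS (vertical axis) of the 664 pairs compared, with the line of equality dotted. Right, the difference between these ratios (vertical axis) against the GC content of the internal minus the first window in percentage points (horizontal axis). Red and blue points are the 72 pairs called higher and the 120 called lower at the internal TSS, and the points climb from left to right in the right panel.

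Dnmt3a stood at the end of the list. Its first TSS went from 12 reads in the scramble library to 66 in the knockdown library, a log2 ratio of 3.43, while its called internal TSS went from 28 to 5, a ratio of -1.52. The difference of -4.94 (interval -6.88 to -3.17) was the lowest of all pairs compared, and it was -4.51 with the expected GC ratio removed. In the scramble library the internal start held more of the mark than the first, and in the knockdown library the order was turned. Its internal ratio by itself lost its call with a window of 500 bases on each side, where it was -1.03, and when scaled to background bins, where it was -1.26.

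In 7 of the 8 pairs with the lowest differences and at least 50 reads at each TSS, a CpG-rich first promoter was joined to an internal start that was not CpG-rich. Litaf had a difference of -3.58 (interval -4.84 to -2.46), its first TSS going from 76 to 90 reads. Hmgxb4 had -3.09 (-4.20 to -2.06), with 74 and 63 unscaled reads at the first. Ank1, ankyrin of the red cell membrane, went from 92 to 24 reads at its internal TSS and from 25 to 52 at its first, a difference of -3.0 (-4.02 to -1.98). Rbfox2, a splicing regulator, went from 42 to 9 at the internal and from 109 to 137 at the first, a difference of -2.55 (-3.83 to -1.41). Cabp1, a neuronal calcium sensor, with differences of -2.55 and -2.42 at 2 internal TSSs, Sgsm1, a modulator of small GTPases, with -2.50, and Mast4, a serine/threonine kinase, with -2.37, complete the 8. All of these kept the call with the expected GC ratio removed. Rarg had -2.02 (-2.77 to -1.29) although its windows differ by under 1 point of GC (59.0% internal, 59.5% first).

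In the 8 pairs with the highest differences and at least 50 reads at each TSS the first start was not CpG-rich. Src, the tyrosine kinase, went from 33 to 88 reads at its internal TSS and from 65 to 25 at its first, a difference of 2.79 (interval 1.85 to 3.74). Rbpj had 226 and 184 reads at the internal and 220 and 36 at the first TSS, a difference of 2.31 (1.72 to 2.94). Its log2 ratio of RPM was 0.67 at the internal TSS, higher in the knockdown library, and -1.64 at the first. The pair was nearly equal in the scramble library, and the windows hold 69.7% and 45.9% GC. Its difference was 0.75 with the expected GC ratio removed and then no longer called. Adipor2, an adiponectin receptor, had 60 and 80 reads at the internal and 80 and 22 at the first TSS, a difference of 2.28 (1.39 to 3.18), which kept its call at 1.62.

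Phf21a, a reader of unmethylated H3K4 in the Lsd1 corepressor complex, had 3 internal TSSs that overlap in their windows, with 81, 86 and 68 reads in the scramble library and 99, 80 and 66 in the knockdown library. Its first TSS had 59 and 15, so the differences were 2.27, 1.87 and 1.93. All rest on that 1 first window, which holds 43.95% GC and had 90 and 52 Jarid1b reads, called in both Jarid1b libraries. With the expected GC ratio removed 1 of the 3 differences kept its call. Phf17, a PHD-finger subunit of a histone acetyltransferase complex, had 117 and 138 reads at the internal and 241 and 67 at the first TSS, a difference of 2.08 (1.53 to 2.64). Rnf125, a ubiquitin ligase, had 59 and 39 against 97 and 13, a difference of 2.30 from log2 ratios of 0.37 and -1.93. Ntn1, the axon guidance cue netrin-1, had 47 and 105 against 89 and 51, a difference of 1.96. Pde10a, with 15 and 9 reads at its first TSS, had 3.05 (1.54 to 4.58). The last 4 kept the call with the expected GC ratio removed.

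In the lists the differences ran both ways. Chromatin genes had 3 pairs higher and 2 lower at the internal TSS of 9 compared, cytoskeletal linkers 3 and 4 of 23, synaptic genes 1 and 3 of 13, signalling genes 3 and 1 of 11 and imprinted genes 2 and 0 of 2. Developmental transcription factors had 0 and 0 of 6, and pluripotency regulators, nuclear receptors and RNA-binding proteins 0 higher and 1 lower each, of 2, 3 and 3. Over all pairs compared the shares were 10.8% higher and 18.1% lower. The 3 higher pairs of chromatin genes were all of Phf21a, in overlapping windows set against 1 first TSS, and so are 1 locus. Both imprinted pairs were of Gnas, also set against 1 first TSS. Gnas, the imprinted locus of the stimulatory G-protein alpha subunit, had 65 and 99 reads and 39 and 50 reads at its internal TSSs against 69 and 41 at the first. Its differences of 1.36 and 1.11 were 0.45 and 0.93 with the expected GC ratio removed and then not called. Bdnf, the brain-derived neurotrophic factor, had 43 and 47 reads against 31 and 14, a difference of 1.28 (0.10 to 2.48), likewise lost at 0.85. Myo10 had -1.70 (-2.38 to -1.04) and Arid5b -1.60 (-2.87 to -0.26), and both kept their calls. Rims2, an active-zone scaffold, had 38 and 21 reads against 136 and 221, a difference of -1.56 that became -0.17, and Lin28b had -1.45, which became -0.44, neither then called.

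Jarid1b calls at internal promoters were rarer than at first promoters. In both Jarid1b libraries 112 of 6244 internal TSSs passed the same test (1.79%), against 6.46% of all windows tested, 7.82% of all first TSSs and 10.9% of the first TSSs of the same genes (447). The number depends on how the libraries are combined: it was 177 internal and 593 first TSSs without replicate 1, 517 and 1380 without replicate 2, and 678 and 1745 with the reads pooled. Of the 112, 101 also had H3K4me3 in the scramble library (90.2%), and 82 were CpG-rich. Among members with H3K4me3 the share with Jarid1b was 8.33% (101 of 1212), and among first TSSs of the same genes with the mark 15.1% (437 of 2887). At 11 of the 112 the first TSS was called too. Pairs with the internal start alone had Jarid1b at 48 of 503 internal TSSs, and pairs with both at 53 of 709. At midpoint windows, adjusted among themselves and so at a stricter cutoff, 2 of 4238 were called, against 82 internal TSSs of the same pairs.

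The Jarid1b share was highest at high GC content. Among TSSs with H3K4me3 it was 4.51% of internal and 7.52% of first TSSs at 50 to 55% GC, 10.4% and 18.9% at 55 to 60%, 18.8% and 25.7% at 60 to 65%, and 38.1% and 44.6% at 65% and above. At 45 to 50% GC it was 3.31% and 2.49%. The Wilson intervals of internal and first TSSs did not overlap at 55 to 60% and overlapped in all the other classes. A called member held a median of 17 reads in the first Jarid1b library and 9 in the second. With the rate of background bins of the same GC class in place of the genome rate, most calls were lost. Then 17 of 6244 internal TSSs and 24 of 4097 first TSSs of the same genes were called, where 112 and 447 had been.

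The 8 members with the highest Jarid1b enrichment lie in 7 genes. Of the list of developmental transcription factors 2 of 69 internal TSSs were called (2.90%), near the 1.79% over all members. Lhx2, a LIM homeobox factor of the forebrain, had 32 and 19 reads in the 2 Jarid1b libraries at its upstream internal TSS and 31 and 15 at the downstream one, in an overlapping window. Their H3K4me3 reads went from 26 to 65 and from 8 to 37, and the first TSS, called for Jarid1b as well, went from 5 to 28. Nr2f2, the orphan receptor COUP-TFII, had 31 and 17 Jarid1b reads and H3K4me3 reads of 21 and 49 at its internal TSS, with 4 and 1 at its first. Runx3, a Runt-domain factor, had 28 and 15 Jarid1b reads and H3K4me3 reads of 23 and 49, with 4 and 4 at its first TSS. Pde10a had 36 and 15, and Zfp316, a zinc-finger protein, 24 and 19. These members kept the call against the GC-matched background, but with a window of 500 bases on each side Nr2f2, Zfp316 and the downstream start of Lhx2 lost it.

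Rreb1, a zinc-finger factor that responds to Ras signalling, had 35 and 14 Jarid1b reads with H3K4me3 reads of 119 and 108, Ntn1 32 and 13, Gnas 20 and 13 at its upstream internal TSS, and Kdm2b 14 and 8. None of these 4 was called against the GC-matched background. Ank1 had the highest value, with 50 and 52 reads, 70.0% of those of the first library within 200 bases, and Litaf had 22 and 13 reads with 90.9% within 200 bases. Such a pile is narrower than the H3K4me3 profile, and 7 of the 112 members had more than 50% of their reads in 200 bases. Dnmt3a had 9 and 0 Jarid1b reads at its called internal TSS and 12 and 9 at its first, neither called.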

How the data were processed

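The deposited files hold 1 aligned read per row (chromosome, start, end, strand), a unit set down as other, since no count, signal or score per feature was deposited by the authors. Mapping to mm9 used Bowtie, per the submitters' processing notes and the labels' protocols, in a version not given in the sources used here. Besides mapping, the protocols name MACS peaks and IgG normalization, and neither a peak list nor an IgG library was used here.

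Reads of chromosomes 1 to 19, X and Y that share a strand and 5′ position were reduced to 1, and 5′ ends were shifted by 75 bases. Minus-strand reads of the Jarid1b libraries matched each other best at an offset of -8 bases (19.8% of positions), which was left uncorrected. Windows of 2000 bases were tested in each library against the genome-wide rate or the rate in the flanking 10 kb on each side, whichever was higher. By the first, a window holds 3.39 and 1.25 reads in the Jarid1b libraries, 4.03 in scramble and 2.06 in knockdown. Jarid1b was called where both of its libraries passed. The first TSS is the most upstream of any transcript of the gene. Ratios used RPM (reads per 1000000 reads kept) and exact Clopper-Pearson intervals conditional on the summed reads. Within-gene differences used sample odds ratios with exact conditional intervals.

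Python 3.11.15, numpy 2.4.6, scipy 1.17.1 and pandas 2.3.3 were used, and the tests were tested on simulated data. Members and gene lists were chosen with earlier results of these data known. Named were, per list, the 3 pairs with the highest internal scramble level and the 2 largest absolute differences, the 8 highest and 8 lowest ratios and differences with at least 50 reads, the 8 highest internal-alone and Jarid1b members, and Dnmt3a. Not all of these are printed. Sequences and GC content came from the NCBIM37 assembly. Alternatives covered repeats, window, threshold, background, scaling, GC, read minimum, distance, TSS choice and Jarid1b libraries.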

Additional observations from a re-analysis of the deposited data

How the results depend on the processing

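No paired analysis was possible because each H3K4me3 group held 1 library and the Jarid1b libraries have no counterpart. Limits of depth come first: the Jarid1b test saw a median of 17 and 9 reads at called members, and at this depth its number of calls depends on the setting, while no H3K4me3 ratio has a replicate. No count or median changed direction and no named value past its threshold changed sign under the alternatives run, but several named ratios under 2-fold did with the expected GC ratio removed, among them Rreb1 (0.83 to -0.26), Rbpj (0.67 to -0.76), Eif4g1 (0.75 to -0.34 and 0.40 to -0.29), Rara (0.65 to -0.44), Ptch1 (0.42 to -0.28) and Auts2 (0.61 to -0.09). The count of internal TSSs with H3K4me3 became 769 with TSSs over 10 kb from the first TSS and from other genes and 706 with 1 internal TSS per gene, and the internal-alone pairs became 269 and 284, both sets holding fewer TSSs. These 2 settings gave 211 and 168 members higher in the knockdown library, a median ratio of 0.62 and 0.47, and 44 and 41 pairs higher at the internal TSS, and 1 TSS per gene gave 28 members lower, 77 pairs lower and 58 Jarid1b calls. The median ratio was 0.65 with all deposited reads, 0.11 scaled to the median ratio of all first TSSs (a shift of 0.42), 0.79 scaled to background bins and 0.11 with the expected GC ratio removed. Of called members 88.1% were higher as reported. Scaled to the median ratio 170 were higher and 110 lower (60.7% higher), with the expected GC ratio removed 106 and 54 (66.3%), and scaled to background bins 28 were lower (94.0% higher). The median within-gene difference was -0.27 with all deposited reads and -0.024 with the expected GC ratio removed. At least 50 reads left 56 pairs higher and 70 lower and a median of -0.05 (-0.14 to 0.05). In pairs within 5 points of GC, an alternative chosen after seeing the data, the median was 0, with 37 higher and 38 lower. The count of members with Jarid1b was 61 with 500 bases on each side, 66 at a threshold of 0.01, 723 against the genome rate alone, 17 against a rate by GC class, 678 with pooled reads, and 177 to 517 when either Jarid1b library was left out. Without windows that hold over 50% of reads in 200 bases, also chosen after seeing the data, it was 105. The median Jarid1b enrichment of members (1.54) was 1.49 with all deposited reads, 1.68 with 500 bases on each side, 1.14 by GC class, 1.39 over 10 kb, 1.64 without TSSs of incomplete 5′ ends, and 1.47 to 1.60 when either library was left out. Among named members, 444 of 458 recomputed differences and 779 of 845 ratios kept their status, called or not called. Values that were never called count among these. A call was lost at 10 recomputed differences and 37 ratios, and gained at 4 and 29. Most of the lost differences came with the expected GC ratio removed. With 500 bases on each side Nr2f2 and the downstream start of Cabp1 lost H3K4me3 in the scramble library. The cause was not tested where it does not follow from the setting.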
